A study of Homo sapiens with 4 samples.

Results

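Genes of cell adhesion to the basement membrane are described here: the integrin alpha subunits ITGA2, ITGA3, ITGA6 and ITGAV, the integrin beta subunits ITGB1, ITGB4 and ITGB5, and the laminin chains LAMA3 and LAMB3. The 9 genes were chosen by name, as the rows of the count tables that carry those symbols, and make up 9 of 20323 rows. Each symbol had 1 row in the files and each of the 9 was among the 12560 genes with enough counts to be tested.

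The counts are ribosome footprints from HCT-8 cells, an established human colorectal adenocarcinoma line, of which a derivative resistant to the antimetabolite 5-fluorouracil was used. One group was transfected with a negative control plasmid (NC) and the other with a METTL14 overexpression plasmid (OE), with 2 libraries in each group. All 4 libraries come from the resistant line and all cells received cycloheximide at 100 ug/mL, which stalls ribosomes on messages. The submitters state that the experiment was done independently for each replicate; nothing in the labels says whether the resistant line is a clone or what share of cells took up the plasmid. METTL14 is a subunit of the enzyme that places N6-methyladenosine on messages, and the comparison asks which messages carried more or fewer footprints after it was overexpressed. A footprint count depends on how much of a message there is and on how densely ribosomes cover it, and these cannot be told apart without total RNA, which was not analysed here.

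Integrins are receptors made of 1 alpha and 1 beta chain that span the plasma membrane, bind matrix outside the cell and link it to the cytoskeleton inside. In epithelia ITGB1 pairs with ITGA2 to bind collagen and with ITGA3 or ITGA6 to bind laminin, while ITGAV pairs with ITGB5 or ITGB1 to bind vitronectin and fibronectin. ITGB4 pairs with ITGA6 alone and, through an unusually long cytoplasmic tail, anchors keratin filaments in hemidesmosomes. LAMA3 and LAMB3 are the alpha and beta chains of the laminin trimer of epithelial basement membranes that ITGA3 and ITGA6 receptors bind.

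The start regions of the members differ in sequence, and those of ITGB1, LAMA3 and LAMB3 are shown because they contrast a GC-rich start with starts that hold a match to the AP-1 motif. RefSeq's promoter table (GRCh38.p14) held 7 of the 9 members with 14 start windows between them, and none for ITGA3 or ITGB4. The 250 bases before each start were searched on both strands for TGANTCA (AP-1, which is its own reverse complement) and GGGCGG (the GC box), which cannot overlap each other. TATAAA (the TATA box) and CCAAT (the CCAAT box) were searched too and are not marked. The sequences run 5′ to 3′ up to the base before the start, with AP-1 and GC box matches in capitals (a GC box on the other strand reads CCGCCC). The LAMA3 and LAMB3 windows lie before starts inside those genes.
ITGB1, chr10:32958231-32958480, - strand: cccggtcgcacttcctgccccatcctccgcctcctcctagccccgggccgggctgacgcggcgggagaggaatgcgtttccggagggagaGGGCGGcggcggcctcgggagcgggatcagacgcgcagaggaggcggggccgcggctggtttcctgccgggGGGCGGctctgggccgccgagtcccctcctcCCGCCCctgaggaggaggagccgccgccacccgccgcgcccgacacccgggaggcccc
LAMA3, chr18:23872770-23873019, + strand: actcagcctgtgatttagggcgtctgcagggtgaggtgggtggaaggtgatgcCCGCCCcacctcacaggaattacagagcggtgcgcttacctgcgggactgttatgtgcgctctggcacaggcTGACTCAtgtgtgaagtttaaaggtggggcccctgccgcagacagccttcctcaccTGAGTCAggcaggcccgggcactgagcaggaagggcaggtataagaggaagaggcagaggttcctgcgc
LAMB3, chr1:209651375-209651624, - strand: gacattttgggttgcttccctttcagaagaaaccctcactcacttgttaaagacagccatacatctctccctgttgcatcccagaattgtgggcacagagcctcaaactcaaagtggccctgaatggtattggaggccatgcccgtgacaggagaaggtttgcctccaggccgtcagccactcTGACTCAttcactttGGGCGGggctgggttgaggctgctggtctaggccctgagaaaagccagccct
The ITGB1 window was 78.4% G and C and held 3 GC boxes. The LAMA3 window held 2 AP-1 matches, which began 125 and 69 bases before the start, and 1 GC box. The LAMB3 window, 1 of 3 listed for the gene, held 1 AP-1 match and 1 GC box, which began 67 and 52 bases before the start. AP-1 matches stood in 2 of the 14 member windows and GC boxes in 9 of 14, in windows of 2 and 6 members, while 6.57% and 42.6% of all 35116 windows in the table held them. TATA boxes stood in 2 of the 14 member windows and CCAAT boxes in 1, against 10.7% and 32% of all windows. The CCAAT match lay in the LAMB3 window shown. The other LAMB3 windows overlap and share 1 GC box, which is counted in each. These matches describe letters only; footprint counts do not measure the activity of a start, and the windows are of a later genome build than the hg18 that the submitters' processing notes name.

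The deposited counts summed to between 7742274 (OE replicate 1) and 24392875 (OE replicate 2) in a library, and a member's count lay between 476 and 19700. The check of the labels, METTL14, lay at 44.5 and 47.6 CPM with the control plasmid and at 448 and 91.2 CPM with the METTL14 plasmid, where CPM is the count scaled to library size by TMM. The replicates of OE were less alike than those of NC, with log2 differences between replicates that had an SD of 1.30 over all genes, against 0.46 in NC. In OE replicate 1 the difference from NC ran with a gene's level: the median difference was 1.17 in the lowest decile of NC level and -1.08 in the highest. In OE replicate 2 the same medians were -0.09 and -0.08. Of 10 epithelial and colorectal markers 9 were tested, of which 4 lay lower in both OE libraries, 1 higher and 4 overlapped. Over all genes tested, 20.4% lay lower and 19.9% higher. Of the 9 markers, 6 were in the top decile of NC level, where 45% of genes lay lower. EPCAM was among the lower markers, with NC values of 1453 and 1379 CPM and OE values of 554 and 1208 CPM. CDX2 was the higher marker, with NC values of 27.1 and 21.9 CPM and OE values of 27.2 and 44.3 CPM. The 10 summed to between 21327 and 21959 CPM in NC and between 6278 and 24778 CPM in OE. Of 8 fibroblast markers, 2 were tested, with a sum of 9.84 to 10.3 CPM in NC and 2.98 to 6.95 CPM in OE and THY1 at 0 in all libraries. Of 6 leukocyte markers 3 were tested, with a sum of 83.9 and 87.6 CPM under the control plasmid against 44.2 and 33.4 CPM under the METTL14 plasmid, most of it CD68, a lysosomal protein, and with CD3E at 0 throughout. CD14 and CD68 lay lower in both OE libraries, as did 20.4% of all genes tested. Their log2 fold changes were -1.95 and -1.07 (edgeR adjusted p = 0.734 for both). The 4 endothelial markers summed to at most 0.41 CPM, with CDH5 and KDR at 0. Whether the marker levels bear on the members' values was not tested, and in a bulk library fewer cells of a kind and less RNA per cell cannot be told apart.

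All 9 members lay lower in each OE library than in either NC library, and 6 of 9 did so with library totals as the only scaling. Their median log2 fold change (OE minus NC) was -0.75, against 0.09 over the 12560 genes tested. By the quasi-likelihood test of edgeR (Benjamini-Hochberg adjustment over all genes), 0 of the 9 passed the threshold of 0.05 (adjusted p between 0.734 and 0.744), as did 0 genes in all (0%); over all genes the DESeq2 Wald test called 25 and the edgeR likelihood ratio test 29, with 0 members among them. At an unadjusted p under 0.05 there were 2 members, ITGB4 and LAMB3, both lower, and 691 genes (5.5%), of which 317 lay lower (2.52% of those tested). Of all genes tested, 20.4% lay lower in both OE libraries and 19.9% lay higher. That share was 45% in the top decile by NC level, which held 7 members, and 34.6% in the next decile, which held ITGB5 and LAMB3. With 2 libraries against 2, an exact two-sided permutation test of a single value cannot give a p below 0.333, so none is printed for single genes.

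**Figure D1:**
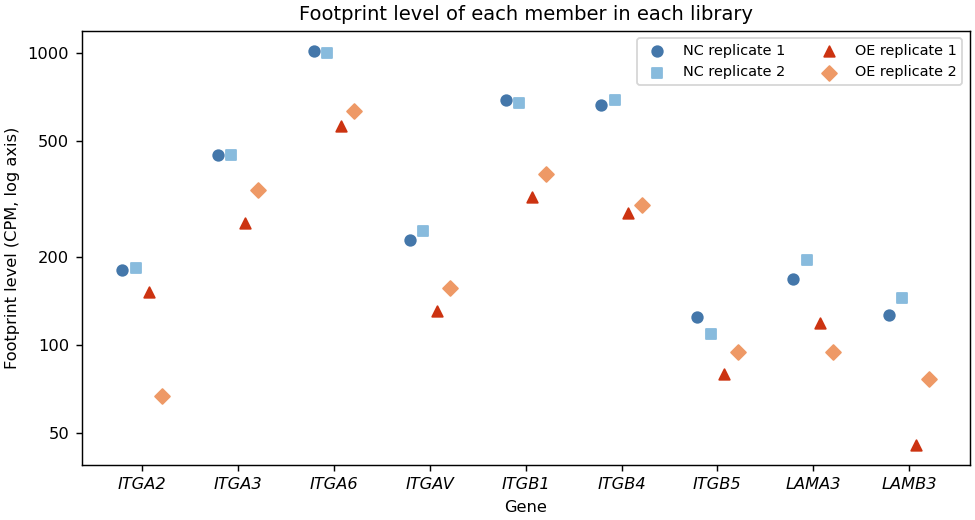
Footprint level (CPM, logarithmic axis) of the 9 members in each of the 4 libraries, 1 point per library. For every member both OE points lie under both NC points; the OE points are closest for ITGB4 (283 and 301 CPM) and farthest apart for ITGA2 (152 and 66.9 CPM).

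Among the beta chains, ITGB4 had the lowest value in OE relative to NC and ITGB5 the highest. ITGB4, the hemidesmosomal chain, measured 662 and 687 CPM in NC replicates 1 and 2, against 283 and 301 CPM in OE replicates 1 and 2. Both OE libraries were well under both NC libraries and close to each other, so the OE mean was 0.433 of the NC mean (292 ± 12.5 against 675 ± 17.8 CPM, SD, n = 2). Its log2 fold change was -1.21 (SE 0.44; edgeR adjusted p = 0.734). ITGB1, the partner of most alpha chains in epithelium, had 690 and 674 CPM in the NC libraries against 321 and 384 CPM in the OE libraries. The groups did not overlap, and the difference of -0.95 on the log2 scale (SE 0.45; edgeR adjusted p = 0.734) left the OE mean at 0.517 of the NC mean. ITGB5, the vitronectin receptor chain, lay at 124 and 109 CPM with the control plasmid and at 79.6 and 94.1 CPM with the METTL14 plasmid. Here the highest OE library came near the lowest NC library. Their 95% intervals (exact Poisson, for counting error alone) were 90.1 to 98.2 CPM and 104 to 114 CPM. The log2 fold change was -0.42 (SE 0.32; edgeR adjusted p = 0.744).

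The alpha chains lay close to one another in size of difference, at log2 fold changes of -0.57 to -0.75, but not in how even the OE replicates were. ITGA6, the laminin receptor chain shared by ITGB1 and ITGB4, measured 1015 and 998 CPM in NC replicates 1 and 2, against 563 and 632 CPM in OE replicates 1 and 2 (log2 fold change -0.75, SE 0.49; edgeR adjusted p = 0.734). ITGAV, the chain of vitronectin and fibronectin receptors, had 229 and 246 CPM in the NC libraries against 130 and 156 CPM in the OE libraries. For both genes each OE library was between 54.8% and 65.7% of the NC mean. ITGA3, whose product with ITGB1 is a receptor for the LAMA3 and LAMB3 trimer, lay at 445 and 446 CPM with the control plasmid and at 262 and 338 CPM with the METTL14 plasmid, 58.7% and 75.8% of the NC mean. ITGA2, the collagen receptor chain, measured 180 and 183 CPM in NC replicates 1 and 2, against 152 and 66.9 CPM in OE replicates 1 and 2. OE replicate 1 kept 83.6% of the NC mean of ITGA2 and OE replicate 2 kept 36.9%, the widest gap between OE replicates of any member (1.18 on the log2 scale). The log2 fold changes of ITGA2, ITGA3 and ITGAV were -0.73 (SE 0.49), -0.57 (SE 0.43) and -0.73 (SE 0.36), with edgeR adjusted p of 0.734, 0.741 and 0.734. Ordered by log2 fold change, the 9 members ran from ITGB4 and LAMB3 at the low end to ITGB5 at the high end, and each gap between neighbours was smaller than the SEs, which ran from 0.32 to 0.49.

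Both laminin chains lay lower in OE, each with its lowest value in a different OE library. LAMB3, the beta chain, had 126 and 144 CPM in the NC libraries against 45.3 and 76.1 CPM in the OE libraries (log2 fold change -1.15, SE 0.39; edgeR adjusted p = 0.734). Its value in OE replicate 1 was 33.5% of the NC mean, the lowest of any member in any library, and rested on 476 counts (95% Poisson interval 41.3 to 49.6 CPM). LAMA3, the alpha chain, lay at 168 and 194 CPM with the control plasmid and at 118 and 94.0 CPM with the METTL14 plasmid (log2 fold change -0.77, SE 0.35; edgeR adjusted p = 0.734). Gene counts sum over transcripts, so the short and long LAMA3 forms, which start far apart in the gene, were not separated.

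The members' differences were next set beside those of genes of like NC level, since the level ran with the difference in OE replicate 1. In OE replicate 1 the members' median difference from the NC mean was -0.84, and 6 of 9 lay above the median of their decile of genes. ITGA2 lay highest, with -0.26 against a decile median of -1.08, at percentile 88.3 of its decile. LAMB3 lay lowest, with -1.57 against -0.65, at percentile 3.82. In that library, then, most members were no lower than other genes of their level, and ITGB1, at -1.09, sat on the median of its decile (percentile 49.5).

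In OE replicate 2 the members' median difference was -0.82, and all 9 lay below the median of their decile, which was -0.08 for the top decile and -0.06 for the next. ITGA2 lay lowest with -1.44 (percentile 3.50) and ITGB4 next with -1.16 (percentile 7.09). LAMB3, LAMA3 and ITGB1 followed with -0.82, -0.94 and -0.83, at percentiles 8.68, 10.8 and 13.5 of their deciles. ITGA6, ITGAV, ITGA3 and ITGB5 lay between percentiles 17.6 and 32.6. Like medians in the OE libraries thus stood beside different surroundings, and LAMB3 lay far down its decile in both libraries, at -0.92 and -0.76 relative to the decile median. ITGB4 lay at -1.09 relative to it in OE replicate 2 but at -0.17 in OE replicate 1, at percentile 36.9 and so within the middle 50% of its decile. Whether the level-dependent difference in OE replicate 1 contributes to the members' values there was not tested.

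**Figure D2:**
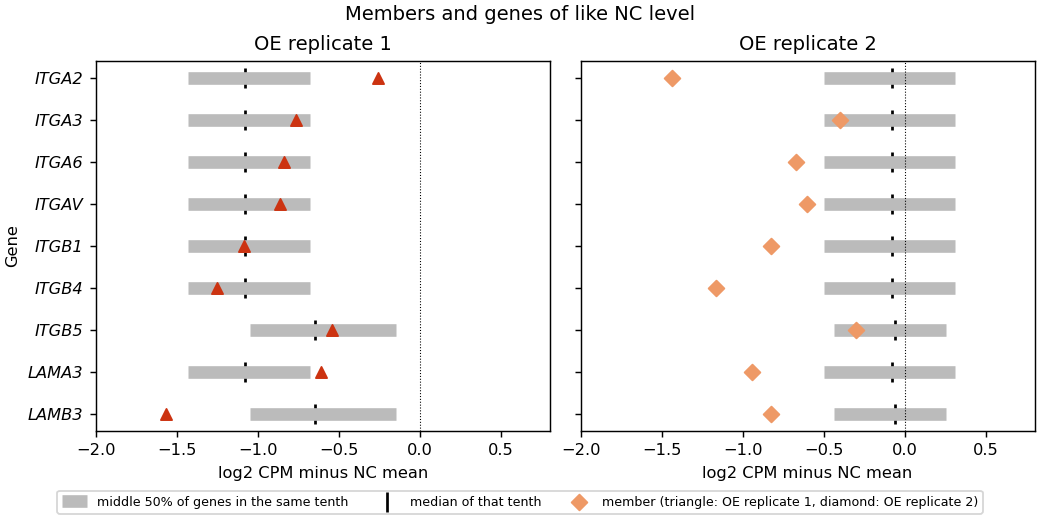
Difference of each member from its NC mean (log2 CPM, horizontal axis) in OE replicate 1 (left, triangles) and OE replicate 2 (right, diamonds), over the middle 50% (grey bar) and the median (black tick) of the 1256 genes in the same decile of NC level. In OE replicate 1 the members scatter around their deciles, 6 above the median and 3 below; in OE replicate 2 all 9 lie to the left of the median.

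Ratios of the raw counts of partner chains within a library need no scaling between libraries, so they were used to compare the chains of a receptor. They do not remove a difference that runs with level, as in OE replicate 1, and partner chains differ in level. ITGA2, for example, had an NC mean of 181 CPM and ITGB1 one of 682 CPM. Whether that difference contributes to the ratios was not tested. The ratios themselves depend on gene length and are used only to compare libraries. The count ratio of ITGA6 to ITGB4 was 1.53 and 1.45 in NC and 1.99 and 2.10 in OE, higher in both OE libraries, by 1.37 times on average. The same was true of 81.4% of all other genes set over ITGB4, a share that the ratio of ITGA6 is read against. Over ITGB1, the ratio of ITGA3 was 0.645 and 0.662 in NC and 0.815 and 0.880 in OE, which put both OE libraries above NC. The ratio of ITGA6 to ITGB1 was 1.47 and 1.48 in NC and 1.75 and 1.65 in OE, and that of ITGAV was 0.332 and 0.365 in NC and 0.406 in both OE libraries. These 3 alpha chains were higher relative to ITGB1 in both OE libraries, by 1.30, 1.15 and 1.17 times, as were 72.2% of other genes.

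The ratio of ITGA2 to ITGB1 was 0.260 and 0.271 in NC but 0.472 and 0.174 in OE, so the OE libraries lay on either side of NC. LAMA3 to LAMB3 did the same, at 1.33 and 1.35 in NC and 2.61 and 1.24 in OE. For these pairs the NC replicates agreed closely and the OE replicates differed in direction. ITGAV to ITGB5 was 1.84 and 2.27 in NC and 1.64 and 1.66 in OE, lower in both OE libraries by a factor of 0.806; 7.33% of other genes were lower over ITGB5 in both. The NC replicates of that ratio differed by more than the gap between NC replicate 1 and the OE libraries.

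**Figure D3:**
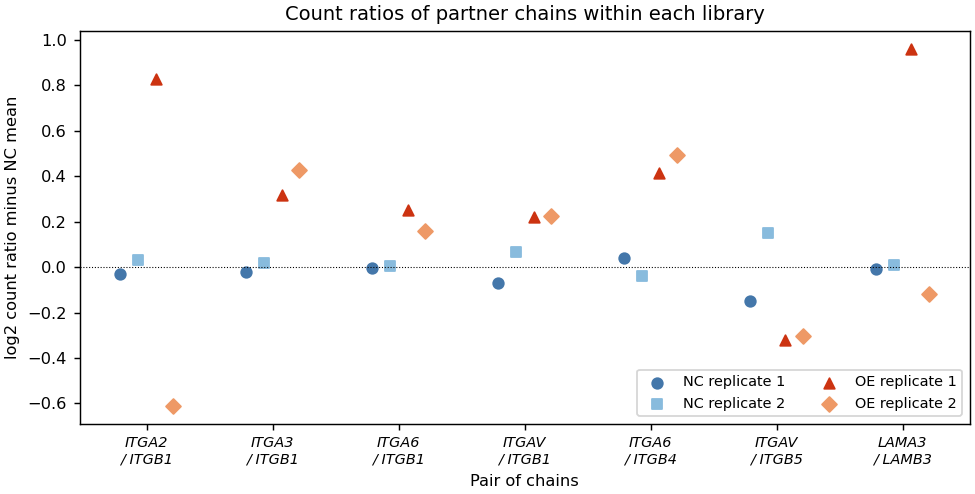
Count ratio of each pair of partner chains in each library, as log2 minus the mean of the NC libraries, 1 point per library. The OE points lie together above NC for ITGA6 over ITGB4 and for ITGA3, ITGA6 and ITGAV over ITGB1, and on both sides of NC for ITGA2 over ITGB1 and LAMA3 over LAMB3.

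Other genes of the adhesion pathway were described from 6 lists, in none of which a gene was called (0 members in each). Genes of these lists that lay lower or higher in both OE libraries are counted against 20.4% and 19.9% of all genes tested, and against the 45% and 34.6% that lay lower in the top decile of NC level and the next. At an unadjusted p under 0.05 by edgeR there were 1 of 21 adaptors (VCL), 2 of 10 hemidesmosome and membrane partners (COL17A1 and CD82) and 2 of 12 matrix genes (LTBP1 lower and COL7A1 higher), against 5.5% of all genes. Among the 19 other integrin subunits only 8 were tested, and ITGA1, ITGA4 and ITGA8 had no count in any library. ITGA5, the fibronectin receptor chain, was the abundant subunit of the 8, with 120 and 107 CPM in the NC libraries against 76.7 and 74.6 CPM in the OE libraries (log2 fold change -0.58, SE 0.31), and was the only subunit on that list lower in both OE libraries. ITGB8, a chain that binds latent TGF-beta, was the one higher in both, with 4.22 and 2.81 CPM in the NC libraries against 6.95 and 4.39 CPM in the OE libraries. ITGA2B and ITGAE, at 17.2 CPM or less in every library, overlapped between the groups. The list's median log2 fold change was 0.07, while the medians of the single OE libraries lay apart, at 0.77 for replicate 1 and -0.57 for replicate 2.

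Of 10 other laminin chains 9 were tested, 5 of them lower and 1 higher in both OE libraries (20.4% and 19.9% over all genes), with a median log2 fold change of -0.50. The top decile of NC level held 3 of the 9 and the next held 2. LAMB2 had 327 and 306 CPM in the NC libraries against 185 and 198 CPM in the OE libraries, and LAMC3 had 53.6 and 48.1 CPM against 28.8 and 39.7 CPM. LAMA1, the alpha chain of embryonic laminin, was the chain higher in both, with 0.515 and 0.469 CPM in the NC libraries against 3.05 and 0.678 CPM in the OE libraries. LAMA5, picked after its values were seen, was abundant but uneven, with NC values of 175 and 158 CPM and OE values of 191 and 102 CPM.

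Hemidesmosome proteins and membrane partners of integrins lay lower in both OE libraries for 8 of 10 genes and higher for 0, with a median of -0.94. Of the 10, 6 were in the top decile of NC level, where 45% of genes lay lower, and 1 was in the next, where 34.6% did, against 20.4% over all genes. The tetraspanins CD151 and CD82, which associate with laminin-binding integrins and other receptors, differed by -1.25 (SE 0.53) and -1.31 (SE 0.36) on the log2 scale. COL17A1, the collagen that binds ITGA6 and ITGB4 in hemidesmosomes, lay at 75.0 and 80.5 CPM with the control plasmid and at 32.6 and 47.4 CPM with the METTL14 plasmid (-0.96, SE 0.34). PLEC, the plakin that ties the ITGB4 tail to keratin filaments, measured 778 and 702 CPM in NC replicates 1 and 2, against 368 and 157 CPM in OE replicates 1 and 2 (-1.49, SE 0.59). DST, the other plakin of the structure, picked after its values were seen, overlapped between the groups, with 34.2 and 39.1 CPM in the NC libraries against 123 and 17.7 CPM in the OE libraries.

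The cytoplasmic adaptors that join integrins to actin were the list with the smallest difference in OE replicate 2. Of 21 tested, 7 lay lower and 2 higher in both OE libraries (20.4% and 19.9% over all genes), and 7 of the 21 were in the top decile of NC level, where 45% of genes lay lower. The list had a median log2 fold change of -0.02, and median differences of -0.49 and 0.06 in OE replicates 1 and 2. Vinculin (VCL) had 247 and 275 CPM in the NC libraries against 62.6 and 117 CPM in the OE libraries (-1.54, SE 0.46; unadjusted p = 0.0192, edgeR adjusted p = 0.734). Talin (TLN1), which binds the beta tail and activates the receptor, lay at 164 and 179 CPM with the control plasmid and at 114 and 42.9 CPM with the METTL14 plasmid, and the filamin FLNA had a log2 fold change of -1.25. Not all adaptors lay low: ILK, PXN, ZYX and BCAR1, picked after their values were seen, overlapped between the groups with log2 fold changes of -0.14, 0.32, 0.01 and 0.06.

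Matrix ligands and basement membrane genes had 12 of 20 members tested, 5 lower and 2 higher in both OE libraries (20.4% and 19.9% over all genes), with a median of -0.30; the top decile of NC level held 2 of the 12 and the next held 4. VTN, the vitronectin that ITGAV receptors bind, measured 44.0 and 43.2 CPM in NC replicates 1 and 2, against 7.81 and 25.2 CPM in OE replicates 1 and 2. The heparan sulfate proteoglycan perlecan (HSPG2) had 434 and 440 CPM in the NC libraries against 267 and 183 CPM in the OE libraries, and LTBP1, which holds latent TGF-beta in the matrix, had a log2 fold change of -1.09 (SE 0.33). COL7A1, the anchoring fibril collagen that attaches to the LAMA3 and LAMB3 trimer, was sparse, with 0.566 and 0.703 CPM in the NC libraries against 11.0 and 1.36 CPM in the OE libraries. The list of matrix receptors that are not integrins had 6 of 7 tested genes lower and 1 higher in both OE libraries (20.4% and 19.9% over all genes), with a median of -0.62. The higher gene, picked after its values were seen, was RPSA. It had 828 and 631 CPM in the NC libraries against 838 and 1156 CPM in the OE libraries. All 7 were among the abundant genes, 5 in the top decile of NC level, where 45% of genes lay lower, and 2 in the next, where 34.6% did. Among them the dystroglycan gene DAG1 and the collagen receptor DDR1 each had -0.70, SDC4 -0.62 and CD44 -0.54.

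**Figure D4:**
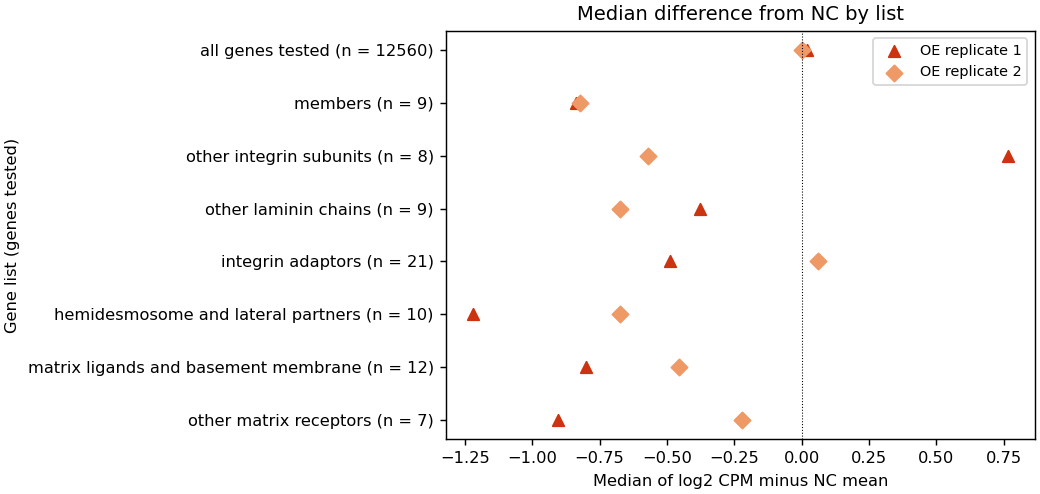
Median over each list's tested genes of the difference from the NC mean (log2 CPM, horizontal axis) in OE replicate 1 (triangles) and OE replicate 2 (diamonds), beside the 9 members and all 12560 genes. The members' medians are -0.84 and -0.82; the medians over all genes lie at 0.02 and 0.00, and the lists' medians run from -1.22 to 0.77 in OE replicate 1 and from -0.67 to 0.06 in OE replicate 2.

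The genes whose pattern over the 4 libraries was most like the mean profile of the members were POLR2A, EFTUD2 and HSPA13. Likeness was the Euclidean distance between log2 CPM values centred on each gene's mean, over 4 libraries and 8781 candidate genes averaging 10 CPM or more, and was 0.04, 0.04 and 0.05 for the 3. POLR2A, the largest subunit of RNA polymerase II, lay at 286 and 301 CPM with the control plasmid and at 164 and 167 CPM with the METTL14 plasmid. Among the members ITGA6 was nearest to the mean profile (distance 0.11), with 21 candidates nearer still, and ITGA2 farthest (0.88), with 3030 nearer. The profile of the members was thus not particular to them.

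The members' values, like those of all genes, depended on the scaling in OE replicate 1. With library totals as the only scaling, the median log2 fold change over all genes moved from 0.09 to 0.40. The members' median moved in the same direction, from -0.75 to -0.43. With that scaling 11.7% of genes lay lower and 30.2% higher in both OE libraries. Under it 6 of 9 members lay lower in both OE libraries. The exceptions were ITGA2, at 206 CPM in OE replicate 1 against 160 and 167 CPM in NC, and ITGB5 and LAMA3, which overlapped at 108 and 161 CPM in that library. All 9 log2 fold changes stayed below 0, between -0.90 and -0.12. With a single OE library kept, most members were called: 8 members passed as lower without OE replicate 1 (17.3% of genes) and 8 without OE replicate 2 (30.8% of genes), by the quasi-likelihood test of edgeR (Benjamini-Hochberg adjusted p). In each of those fits the lone OE library is assumed to vary as the NC libraries do. The percentages are over all genes, while all 9 members lay in the top decile of NC level or the next. Shares among genes of that level were not given for these fits. In OE replicate 1 the medians of those deciles were -1.08 and -0.65, and 6 of 9 members lay above them. In OE replicate 2 they were -0.08 and -0.06, and all 9 lay below. The calls in OE replicate 1 thus do not set the members apart from genes of their level. Without OE replicate 1 the member that did not pass was ITGB5 (-0.31, adjusted p = 0.134), and without OE replicate 2 it was ITGA2 (-0.30, adjusted p = 0.0794).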

How the data were processed

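Footprint libraries of 4 samples, 2 per group, were grouped by their titles. The authors deposited expected counts per Ensembl gene, 1 table per library, per the file headers; 13.8% to 14.7% of values held a fraction, and all were rounded before testing. The submitters' processing notes list fastp, Bowtie2, HISAT2, StringTie, RSEM and hg18; versions, roles, annotation and strand setting are not stated in any source read, so overlapping genes may share reads.

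R 4.3.3 with edgeR 4.0.16 was used: filterByExpr (minimum count 10, minimum total 15, proportion 0.7), TMM, and a quasi-likelihood test of OE against NC with Benjamini-Hochberg adjustment over 12560 genes at 0.05. TMM factors were 0.889, 0.912, 1.36 and 0.907 for NC replicates 1 and 2 and OE replicates 1 and 2. Differences in single libraries used log2 CPM (prior count 2). Alternatives used DESeq2 1.42.0, limma 3.58.1, other scalings and filters, a replicate block, and each library left out. Replicates were no repeated library (chi-square per degree of freedom 13.1 for NC and 332.1 for OE). The fit and the motif search were tested on simulated data. All p-values rest on the spread between these 4 libraries, with each gene's spread estimated partly from other genes. Members and lists were chosen with earlier results of these data known; of each list, up to 4 tested genes with the smallest p are named, further genes are said to be picked, and a few of the genes so chosen are left out here. Genes were given levels per library and not per coding length, for which no length table was used here.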

Additional observations from a re-analysis of the deposited data

How the results depend on the processing

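The count of genes called by edgeR's quasi-likelihood test was 0 over all libraries. It stayed 0 with RLE size factors, library totals, no filter, a filter of 50 counts and limma with array weights (chosen after seeing the data), and was 25 by the DESeq2 Wald test, 29 by edgeR's likelihood ratio test and 24 with the replicate block; 0 members were called in these fits. Leaving out 1 library gave between 7 and 7969 genes called. The members' median log2 fold change was -0.43 with library totals, between -0.88 and -0.77 without 1 library, and moved by less than the replicate SD of 0.055 elsewhere, with -0.78 in the replicate block. The replicate numbers were not taken as pairs, as same-numbered libraries deviated with a correlation of -0.10 over genes and 2 pairs are too few. All 9 members lay lower in both OE libraries under RLE and 6 did with library totals, both counts being chosen after seeing the data. Leaving out 1 library cannot undo such a separation, so that count is no check. Each member's log2 fold change stayed below 0 in all 13 alternatives, but some of these are no check of the sign. Summing the rows of a symbol repeats the main fit, as each member had 1 row. Leaving out 1 library keeps the sign where the groups do not overlap. Counting intervals of the OE replicates did not overlap for any of the 9 members, so their gap exceeded counting error. With 2 libraries a group the test had 2 residual degrees of freedom. The quasi-likelihood fit added 3.09 (median) drawn from the spread of other genes.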
